A study of Schizosaccharomyces pombe with 4 samples.

Results

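The nuclear tRNA genes of fission yeast (Schizosaccharomyces pombe) were described in small RNA libraries of a wild-type strain (WT, 2 libraries) and a strain labelled ABP1d (2 libraries). The genes were all 171 that RefSeq annotates as tRNA on the 3 chromosomes of the assembly ASM294v3, and the deposited regions that overlapped one of them by at least 1 base were used. These were 177 of the 4012 windows in the table that compares the strains, and they lay on 166 of the 171 genes. Cells of both strains were growing exponentially in rich medium without treatment, and the labels give the genotype as wild type or ABP1d, with no further allele. Abp1 belongs to the CENP-B family of DNA-binding proteins, named after a protein of human centromeres. No region in the files overlapped its gene (cbp1 in the annotation), so the targeted gene could not be checked.

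A tRNA carries 1 amino acid to the ribosome and pairs its anticodon with the codon of the messenger RNA. tRNA genes are transcribed by RNA polymerase III as precursors with a 5′ leader and a 3′ trailer, which are removed, and some carry an intron behind the anticodon that is spliced out. Stretches of tRNAs are a regular part of small RNA libraries, as fragments cut from mature tRNAs or precursors or as products of decay. In fission yeast many tRNA genes stand in clusters beside and within the centromeres, where they are known to act as barriers to the spread of heterochromatin.

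The authors' files give 1 pooled value per strain as RPKM (reads per kilobase of window and per 1000000 reads), so no difference could be set against a spread between libraries and no test was made. Value times length was a whole number of reads in 100% of the windows (to within 1e-06 of a read), and the totals were 23817270 reads for ABP1d and 14466014 for WT. Levels below are reads scaled to that total (RPM, reads per 1000000), and a ratio is ABP1d over WT RPM with an exact 95% binomial interval that covers counting error only. The files carry no strand. Directions depend on the scale: centring on the 15 windows of spliceosomal snRNAs lowers every log2 ratio by 1.96 and centring on the 37 windows of 5S rRNA lowers it by 1.25. Differences between tRNAs do not change with such a shift.

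The genes that the results turn on are shown first, as RefSeq gives them in ASM294v3, from the first to the last base of the gene with the intron where there is one. Letters are DNA, 5′ to 3′ on the strand of the tRNA, and capitals mark the anticodon. The set holds the genes with the highest and lowest ratios (alanine CGC, glutamine, valine TAC, arginine TCT, isoleucine AAT, proline AGG), counterparts with another anticodon for alanine, glutamine and valine, both methionine tRNAs, the abundant glycine and tyrosine genes, and an aspartate gene that RefSeq lists under asparagine beside a true asparagine gene.
SPATRNAALA.06, Ala-CGC, chrI:4796977-4797059, plus strand: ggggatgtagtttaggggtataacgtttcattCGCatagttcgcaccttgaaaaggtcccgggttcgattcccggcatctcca
SPBTRNAALA.07, Ala-AGC, chrII:285676-285749, plus strand: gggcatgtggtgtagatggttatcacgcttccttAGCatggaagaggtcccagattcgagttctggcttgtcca
SPBTRNAGLN.01, Gln-CTG, chrII:257454-257525, plus strand: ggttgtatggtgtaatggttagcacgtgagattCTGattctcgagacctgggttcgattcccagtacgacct
SPBTRNAGLN.02, Gln-TTG, chrII:257908-257979, minus strand: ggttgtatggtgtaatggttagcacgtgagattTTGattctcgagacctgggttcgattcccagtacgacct
SPATRNAVAL.02, Val-TAC, chrI:703075-703147, minus strand: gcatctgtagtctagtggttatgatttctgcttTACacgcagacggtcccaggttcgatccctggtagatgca
SPBTRNAVAL.05, Val-AAC, chrII:1600967-1601049, minus strand: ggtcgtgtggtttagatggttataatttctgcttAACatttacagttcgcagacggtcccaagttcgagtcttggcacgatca
SPBTRNAARG.04, Arg-TCT, chrII:326652-326724, minus strand: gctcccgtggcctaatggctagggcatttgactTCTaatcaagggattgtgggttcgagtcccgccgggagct
SPBTRNAMET.06, initiator Met-CAT, chrII:2434303-2434374, minus strand: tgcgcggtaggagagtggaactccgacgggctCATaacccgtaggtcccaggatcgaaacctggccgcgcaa
SPBTRNAMET.05, elongator Met-CAT, chrII:1598075-1598155, minus strand: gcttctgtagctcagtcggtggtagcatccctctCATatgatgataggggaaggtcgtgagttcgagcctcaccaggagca
SPBTRNAILE.06, Ile-AAT, chrII:1618293-1618366, plus strand: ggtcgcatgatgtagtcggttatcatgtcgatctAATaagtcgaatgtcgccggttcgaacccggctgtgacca
SPBTRNAPRO.06, Pro-AGG, chrII:2319292-2319363, plus strand: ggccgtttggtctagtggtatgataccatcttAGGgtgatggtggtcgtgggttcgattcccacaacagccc
SPCTRNAASP.05, Asp-GTC, chrIII:1068029-1068099, plus strand: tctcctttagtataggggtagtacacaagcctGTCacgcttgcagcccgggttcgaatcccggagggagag
SPBTRNAASN.02, Asn-GTT, chrII:2032160-2032233, plus strand: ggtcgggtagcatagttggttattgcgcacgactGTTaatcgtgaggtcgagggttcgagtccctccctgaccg

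The anticodon decoded the amino acid of the RefSeq product in 166 of the 171 genes. The other 5, named ASP and listed with the product tRNA-Asn (SPBTRNAASP.05 and SPCTRNAASP.05 to SPCTRNAASP.08), carry the anticodon GTC of aspartate and the sequence of the annotated tRNA-Asp genes, as the lines for SPCTRNAASP.05 and SPBTRNAASN.02 show. They were counted with aspartate, which then has 8 genes and asparagine 6. SPBTRNAASP.05 is annotated on the plus strand, and its sequence is that of a tRNA-Asp gene when read on the minus strand. In all, the genes hold 45 anticodons for 20 amino acids, and 44 genes have an intron of 7 to 30 bases.

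Many copies are identical: after splicing, the 171 genes give 61 distinct sequences, 29 of them with a single copy and the most frequent ones with 9. Of 31 sequences with windows on several copies, 25 had ABP1d reads within 10% of each other at every copy. The 8 copies of Gly-GCC, for example, held between 28074 and 28189 ABP1d reads each and between 4753 and 4787 WT reads. For these 25 sequences a read that matches several copies was thus entered at each, and the value of a copy is that of the sequence, not of the locus. Other identical copies differed more. The widest spreads of ABP1d reads were 1.88-fold in an Ile-AAT sequence (638 at SPATRNAILE.01 and 340 at SPCTRNAILE.09), 1.67-fold in Val-AAC and 1.60-fold in Asn-GTT. Amino acids were therefore summed over 1 copy per distinct sequence, the copy with the median number of reads. Near-identical sequences still share reads: SPBTRNAGLN.01 and SPBTRNAGLN.02 differ by a single base in the anticodon (C34T, counted from the first base of the gene), and SPATRNATYR.01 and SPBTRNATYR.04 are identical in 73 of 74 aligned bases and hold 25372 and 25272 ABP1d reads. The Lys-TTT genes SPATRNALYS.02 and SPBTRNALYS.06 are identical in 74 of 75 aligned bases, with 940 and 920 ABP1d reads, and both Ile-AAT sequences in 72 of 74. Sums for glutamine, tyrosine, cysteine, arginine, lysine and isoleucine may therefore hold some reads more than once. Not all pairs of sequences were compared, so the sums of other amino acids with several sequences may do so too.

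All 177 listed tRNA windows were higher in ABP1d, where 82.9% of all 4012 listed windows were. At least 2-fold higher were 148 of the 177 tRNA windows, where 79.9% of all 4012 windows were. At least 4-fold higher were 72 of the 177, where 51.8% of all windows were. The median log2 ratio was 1.84 over the tRNA windows and 2.09 over all windows of the table. tRNA windows thus lay in 1 direction more often than the rest of the table, while their median ratio was lower. The authors' deposited table lists a p-value of 0 for 137 of the tRNA windows and at most 0.0162 for the others, and how these were computed is not stated. Ratios ran from 1.21 to 14.7, and no tRNA window had 0 reads in WT. Deposited p-values were small for all 4012 windows, so the table appears to hold only windows already called different by the authors. Windows with like levels in both strains may thus be absent. The counts, the percentages of windows and the lowest ratio hold for listed windows only, and do not show that every tRNA was higher. Summed over 1 copy per sequence, tRNAs made up 1.04% (1.036 to 1.044) of the ABP1d reads and 0.257% (0.254 to 0.259) of those of WT, a ratio of 4.05 (4.01 to 4.10). These sums may also hold reads of near-identical sequences more than once. When each ratio was centred on the snRNA windows, 76 of the 177 windows stayed above 1, and 72 of the 161 genes with a window of their own. The median over all 4012 windows stayed above 1 at this scale, since its log2 ratio of 2.09 exceeds the 1.96 taken off. The tRNA median, at 1.84, did not.

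The spread between amino acids was wide. Glutamine tRNAs had the highest summed ratio, at 12.1 (11.4 to 12.8), followed by alanine at 11.3 (10.8 to 11.7), initiator methionine at 9.86 (8.98 to 10.9) and cysteine at 8.75 (7.45 to 10.3). These 4 stood apart from the next, leucine at 5.65 (5.37 to 5.94). With the copy of the most reads standing for each sequence, glutamine had 11.1, alanine 10.6, initiator methionine 9.86, cysteine 7.87 and leucine 5.45. At the other end were proline at 1.67 (1.57 to 1.78), isoleucine at 1.80 (1.66 to 1.96), elongator methionine at 1.99 (1.88 to 2.11), tyrosine at 2.27 (2.23 to 2.32) and lysine at 2.30 (2.15 to 2.45). Between these lay phenylalanine at 5.59, threonine at 5.15, valine at 4.90, arginine at 4.79, glutamate at 4.57, aspartate at 4.27, histidine at 4.12, glycine at 3.74, asparagine at 2.94, tryptophan at 2.76 and serine at 2.68. Serine depends on windows shared with initiator methionine genes: with a window counted for the gene that holds at least 50% of it, SPATRNASER.01 and SPCTRNASER.11 received such windows and serine had 6.75. This is not a value of serine alone. Both windows held 8802 ABP1d reads and cover an initiator gene, and the initiator gene SPBTRNAMET.06 by itself held 7582. Intervals of neighbours in this order overlapped in 17 of 20 pairs, and were apart between cysteine and leucine, glycine and asparagine, and tyrosine and elongator methionine. All 21 groups were above 1 on the authors' totals, 16 with 5S rRNA windows centred and 12 with snRNA windows centred; the groups that fell below 1 with snRNA windows centred were glycine and those from asparagine down.

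**Figure D1:**
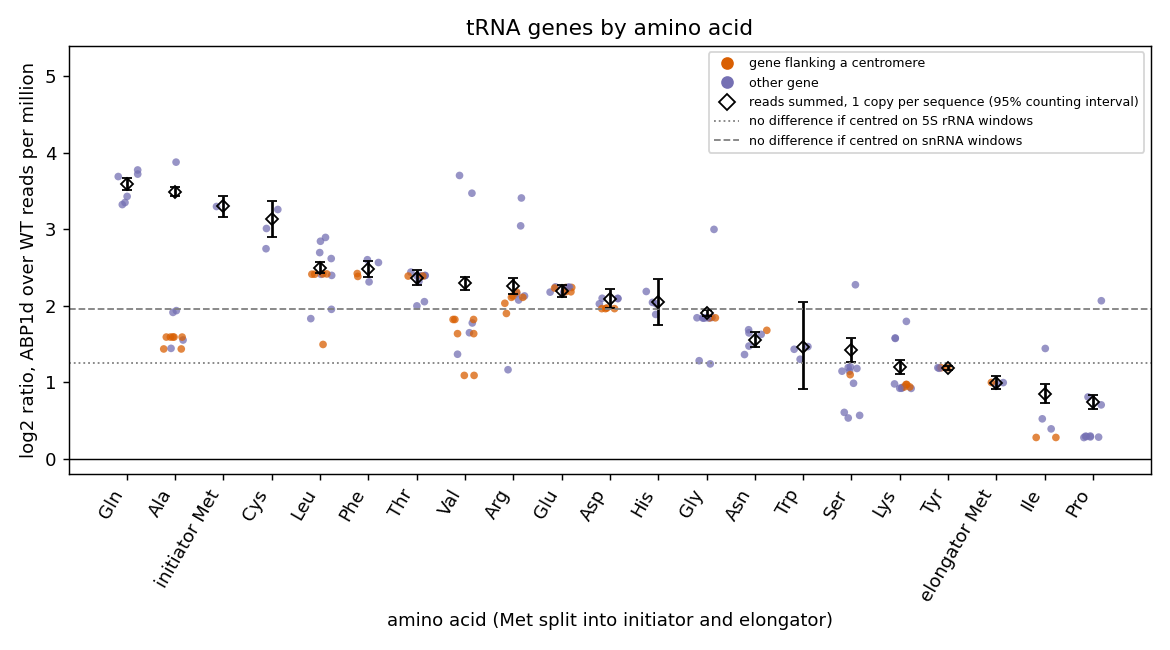
Each point is a tRNA gene with a window of its own (161 genes), placed by its log2 ratio of ABP1d over WT RPM on the y axis and by amino acid on the x axis, with genes flanking a centromere in orange and the others in purple; diamonds give the reads summed over 1 copy per sequence with the 95% counting interval. All points lie above 0, the glutamine genes lie high together, 1 or 2 genes each of alanine, valine, arginine, glycine and proline stand far above the other genes of their amino acid, and the grey lines mark where 0 would lie with 5S rRNA (1.25) or snRNA (1.96) windows centred.

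The order of levels was another. The most abundant sequence in WT was that of tyrosine: SPBTRNATYR.02 had 1067 RPM in ABP1d against 468 RPM in WT, a ratio of 2.28 (2.22 to 2.34). Glycine followed, with 1184 RPM in ABP1d and 331 in WT at SPBTRNAGLY.03. In ABP1d the most abundant was SPATRNAALA.06, with 1590 RPM against 108 in WT. Tryptophan, which has 3 identical genes, was the least abundant amino acid, with 6.30 RPM in ABP1d and 2.28 in WT. Reads were concentrated in both strains: the 5 sequences with the most ABP1d reads held 50.8% of the tRNA reads in ABP1d, and the 5 with the most WT reads held 57.8% in WT, with both near-identical tyrosine sequences counted. Within the tRNA reads, alanine made up 16.6% in ABP1d and 5.98% in WT, glutamine 10.7% and 3.58%, and tyrosine 20.5% and 36.5%. Glycine had a like share in both, 13.3% and 14.4%. Tyrosine is summed over 2 near-identical sequences and glutamine over 3 similar ones. Their shares may count many reads more than once and may be too high in both strains.

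**Figure D2:**
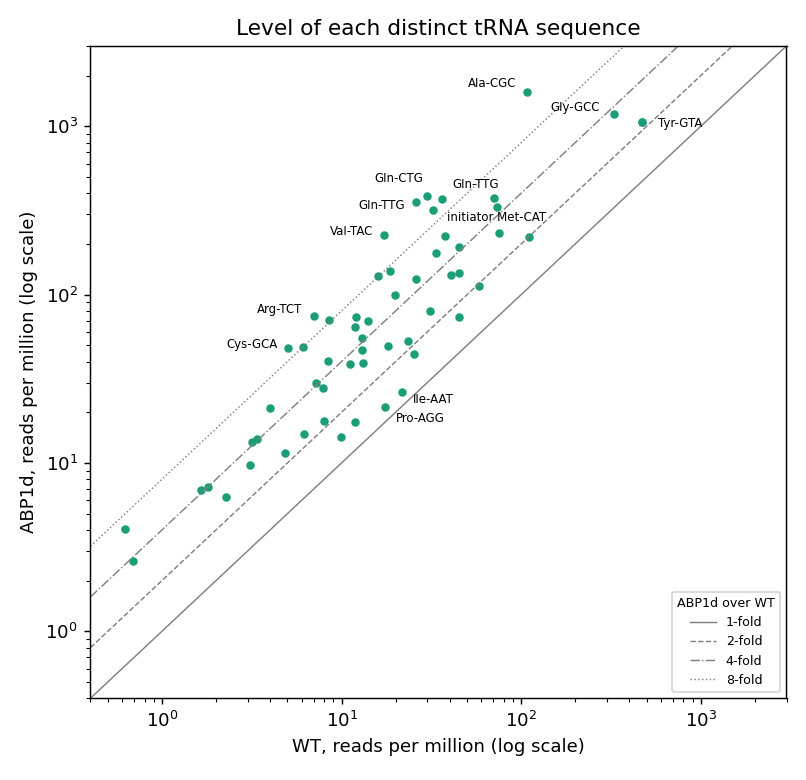
Each point is a distinct tRNA sequence (58 with a window of its own), with WT RPM on the x axis and ABP1d RPM on the y axis, both on log scales; the lines mark ratios of 1, 2, 4 and 8. Ala-CGC (1590 against 108 RPM) lies beyond the 8-fold line, Tyr-GTA (1067 against 468 RPM) near the 2-fold line, and Ile-AAT and Pro-AGG just above the line of equal levels.

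Isoacceptors, tRNAs that carry the same amino acid with different anticodons, differed within 7 of the amino acids by more than 2-fold in their ratio. The widest gap was in alanine. SPATRNAALA.06, the single gene with the anticodon CGC, which reads GCG codons, had 37870 ABP1d reads against 1563 in WT, a ratio of 14.7 (14.0 to 15.5). The 9 identical Ala-AGC genes had 3115 to 3561 reads in ABP1d and 647 to 796 in WT, with ratios of 2.70 to 3.01. Ala-TGC had only 62 and 10 reads, a ratio of 3.77 (1.92 to 8.24). The high sum of alanine is thus that of a single gene: without SPATRNAALA.06 the amino acid had a ratio of 3.02. The window of SPATRNAALA.06 covers a 5′ part, that of Ala-TGC a 3′ part and those of Ala-AGC the whole gene, so different parts are compared.

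Valine came next. The 2 identical Val-TAC genes, which read GTA codons, had 5447 and 5346 reads in ABP1d against 298 and 249 in WT, with ratios of 11.1 (9.88 to 12.5) and 13.0 (11.5 to 14.9). Val-CAC had 232 and 45 reads, a ratio of 3.13 (2.27 to 4.41). The 9 Val-AAC genes ranged from 2.13 to 3.53. The highest read counts of Val-AAC were at SPCTRNAVAL.09 and SPCTRNAVAL.10, with 9133 in ABP1d and 2609 in WT at each, while the other 7 copies held 5477 to 6058 and 942 to 1428. For this sequence the copies thus did not share all their reads. With the copy of the most reads standing for each sequence, valine had a summed ratio of 3.05 in place of 4.90.

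In arginine, the 2 Arg-TCT genes differ by 1 of 73 bases and hold 1768 and 1672 ABP1d reads against 101 and 123 in WT, ratios of 10.6 (8.70 to 13.1) and 8.26 (6.87 to 9.998). The remaining arginine tRNAs were lower: Arg-ACG, with 8 genes, had 4.21 (3.61 to 4.93), Arg-TCG 4.09 (3.02 to 5.64), and Arg-CCT, with an intron of 30 bases, 2.24 (1.98 to 2.53). Both Arg-TCT intervals lay above those of the other 3.

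Glycine, proline, serine and isoleucine had the same kind of gap. The single gene Gly-CCC had 3054 ABP1d and 232 WT reads, a ratio of 8.00 (6.99 to 9.18), against 3.58 (3.48 to 3.70) for Gly-GCC and 3.05 (2.72 to 3.43) for Gly-TCC. Pro-CGG, also a single gene, had 317 and 46 reads and a ratio of 4.19 (3.06 to 5.83), while the 6 Pro-AGG genes had 509 to 515 and 253 to 257 reads and ratios of 1.21 to 1.23. Pro-TGG lay between, with 1.75 (1.55 to 1.98) at SPATRNAPRO.01 and 1.63 (1.49 to 1.78) at SPBTRNAPRO.08. Ser-TGA (SPATRNASER.03) had a ratio of 4.84 (4.00 to 5.90), Ser-AGA 2.21 (1.80 to 2.74) and Ser-GCT 1.48 (1.24 to 1.78). Ile-TAT (SPATRNAILE.02) had 2.71 (2.37 to 3.12) and Ile-AAT 1.28 (1.15 to 1.43), with 1.43 (1.18 to 1.76) at SPCTRNAILE.09. The identical copy SPATRNAILE.01 had 1.31 (1.14 to 1.51). The values of Ser-TGA and Pro-CGG come from windows on the 5′ part of the gene, which end at bases 61 and 54, and that of Ile-TAT from a window on the 3′ part from base 40. The other isoacceptors given here for these amino acids have whole-gene windows, so these gaps also compare different parts.

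Lysine had a smaller gap, with 1.91 (1.77 to 2.07) for Lys-CTT and 3.21 (2.86 to 3.61) for Lys-TTT. In glutamine, glutamate, leucine and threonine the isoacceptors lay closer together. Gln-CTG had 12.9 (11.7 to 14.3) and Gln-TTG 11.7 (10.9 to 12.5), Glu-CTC 4.72 (4.24 to 5.27) and Glu-TTC 4.52 (4.24 to 4.83). The 5 leucine isoacceptors had ratios between 5.27 and 6.48, although the 5 Leu-AAG genes fall into 2 sequences, with 7.18 to 7.43 in one and 2.82 to 3.87 in the other. The 3 threonine isoacceptors lay between 4.07 and 5.43. Cys-GCA genes ranged from 6.71 to 9.58, on 1151 to 1182 reads in ABP1d and 73 to 107 in WT. Of amino acids with 1 anticodon, the gene with the most ABP1d reads had 3.20 (2.98 to 3.44) in asparagine (SPBTRNAASN.01), 4.55 (3.72 to 5.61) in histidine (SPBTRNAHIS.02) and 5.22 (4.803 to 5.68) in phenylalanine (SPCTRNAPHE.05).

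Methionine has 2 tRNAs with the same anticodon, of which the initiator starts every protein and the elongator reads all further AUG codons, those inside the protein. The printed genes of the 2 kinds are identical in 42 of 77 aligned bases. The initiator gene SPBTRNAMET.06 had 7582 ABP1d and 467 WT reads, a ratio of 9.86 (8.98 to 10.9), and the 3 elongator genes had 5244 to 5258 and 1597 to 1626 reads and ratios of 1.96 to 1.99. The other 3 initiator genes follow a serine tRNA gene closely and share a window with it. It covers SPATRNASER.01 and SPCTRNASER.11 whole but only 27.8% of SPATRNASER.03. These shared windows held 8802, 7818 and 8802 reads in ABP1d and 659, 542 and 678 in WT, with ratios of 8.11, 8.76 and 7.89. They are not assigned to either amino acid, and Ser-CGA (SPATRNASER.01) and SPCTRNASER.11 have no window of their own.

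Across the 12 amino acids with several measured isoacceptors, the isoacceptor with the most genes had the lowest ratio in 6 (alanine, glutamine, isoleucine, lysine, proline and valine) and the highest in 1 (glutamate). In alanine, glutamine, valine and glutamate its interval overlapped that of another isoacceptor. For glutamine the order also depends on the copy: SPBTRNAGLN.01, the other Gln-CTG copy, had 10.8, below the 11.7 of Gln-TTG. With only 2 to 5 isoacceptors per amino acid, the isoacceptor with the most genes would be the lowest in some of them whatever the number of genes. Over distinct sequences, the median ratio was 4.84 for isoacceptors with 1 or 2 genes (21 sequences), 3.86 for those with 3 to 5 genes (22 sequences) and 3.11 for those with 6 or more (15 sequences), with ranges that overlap widely. In 5 of 8 amino acids that have both, each isoacceptor with T as the first anticodon base was above the one with A. Intervals were apart for isoleucine, proline, serine and valine, but not for alanine, and arginine, leucine and threonine did not follow this order; for isoleucine and serine the windows cover different parts of the gene. These are descriptions of 1 pair of strains, with no test.

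**Figure D3:**
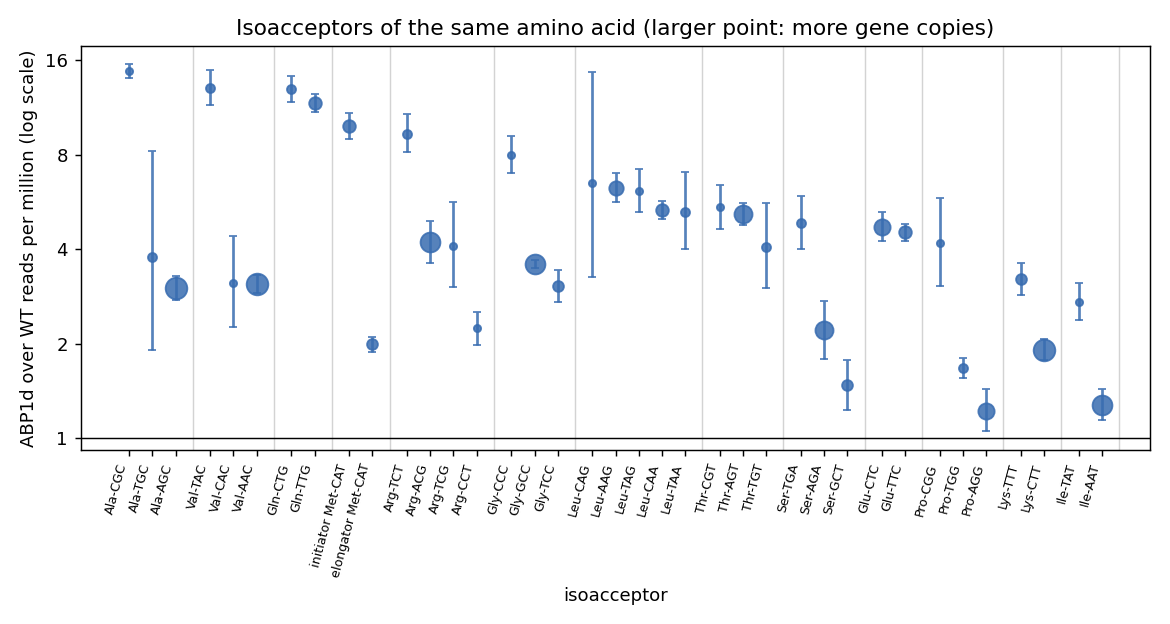
Ratio of ABP1d over WT RPM on a log y axis for each isoacceptor of the amino acids that have more than 1, and for both kinds of methionine tRNA; bars are 95% counting intervals and larger points stand for more gene copies. Ala-CGC (14.7), Val-TAC (13.0), initiator Met (9.86), Arg-TCT (9.33) and Gly-CCC (8.00) stand apart from the other isoacceptors of their amino acid, while the leucine, threonine, glutamate and glutamine points overlap.

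Windows give the outer limits of the part of a tRNA that the reads came from. Of 174 windows that belong to 1 gene, 141 (81.0%) covered at least 90% of it, 16 covered a 5′ part, 16 a 3′ part and 1 an internal stretch. The median ratio was 3.58 for whole genes, 5.45 for 5′ parts and 2.46 for 3′ parts, with ranges of 1.77 to 14.7 for 5′ parts and 1.86 to 5.57 for 3′ parts. The window extends over all reads of a place, so a whole-gene window need not hold whole tRNAs, and per the labels' protocols sequencing stopped after 38 cycles. Genes with several windows are the most direct view of the parts. In the next lines, capitals mark the bases inside a window, first for the gene with the highest ratio and then for 4 genes with a window on each part, chosen because the parts differ in level or ratio.
SPATRNAALA.06, Ala-CGC, chrI:4796977-4797059, plus strand: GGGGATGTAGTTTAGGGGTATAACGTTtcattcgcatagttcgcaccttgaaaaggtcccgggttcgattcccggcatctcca
SPATRNATHR.04, Thr-CGT, chrI:3164749-3164820, plus strand: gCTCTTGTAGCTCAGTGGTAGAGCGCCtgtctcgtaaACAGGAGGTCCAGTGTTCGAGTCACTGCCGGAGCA
SPBTRNALEU.05, Leu-TAA, chrII:1402444-1402541, minus strand: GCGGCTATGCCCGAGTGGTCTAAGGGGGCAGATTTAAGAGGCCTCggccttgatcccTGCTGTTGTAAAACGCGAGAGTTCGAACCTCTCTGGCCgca
SPBTRNALYS.07, Lys-CTT, chrII:1599706-1599788, plus strand: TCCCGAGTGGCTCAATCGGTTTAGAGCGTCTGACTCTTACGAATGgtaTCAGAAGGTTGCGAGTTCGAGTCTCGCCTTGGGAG
SPCTRNAARG.10, Arg-TCG, chrIII:1067092-1067164, minus strand: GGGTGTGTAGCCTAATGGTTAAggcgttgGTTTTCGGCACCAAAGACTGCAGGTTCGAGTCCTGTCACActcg

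SPATRNAALA.06 had a window on its 5′ part alone, from 6 bases before the gene to base 27, upstream of the anticodon. The ABP1d list narrows this further: its region ends at base 24, is 30 bases long and holds all 37870 reads, at 53001 RPKM. No window is listed on the rest of the gene, which does not show that it had 0 reads. The reads listed for this gene, the most abundant of all in ABP1d, thus came from a single short stretch.

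In 13 genes a window lay on each side of a gap, and the ratio of both parts could be compared. SPATRNATHR.04 (Thr-CGT) had 1327 ABP1d and 121 WT reads in its 5′ window, a ratio of 6.66 (5.53 to 8.09), and 201 and 50 in its 3′ window, a ratio of 2.44 (1.78 to 3.40). SPATRNALEU.02 (Leu-TAA) had 6.24 (4.57 to 8.71) and 2.21 (1.21 to 4.33), and SPATRNALEU.03 (Leu-TAG) 6.41 (5.45 to 7.59) and 2.43 (1.27 to 5.02). For these 3 genes the intervals were apart. The 5′ ratio was also the higher in SPBTRNALEU.05, the identical copy of SPATRNALEU.02, and in SPATRNALEU.01, SPBTRNATHR.06 and SPCTRNATHR.10 (whose first window begins at base 10), where intervals overlapped on as few as 2 to 4 WT reads in the 5′ window of the Thr-TGT genes and 3 in that of SPATRNALEU.01.

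The remaining 6 genes did not have that difference. The 5′ windows of the 3 elongator methionine genes (SPATRNAMET.02, SPBTRNAMET.04 and SPBTRNAMET.05) held 4174 to 4186 reads in ABP1d and the 3′ windows 1070 to 1075, with ratios of 1.99 to 2.03 and 1.86 to 1.88. In the Lys-CTT genes SPBTRNALYS.07 and SPBTRNALYS.08, which are identical, the 3′ window held most reads, 2190 against 444 in ABP1d, and the ratios were 1.77 (1.47 to 2.15) on the 5′ side and 2.00 (1.83 to 2.18) on the 3′ side. SPCTRNAARG.10 (Arg-TCG) had 3.39 (2.07 to 5.85) and 4.54 (3.09 to 6.88). The share of reads on the 5′ side also differed between tRNAs in ABP1d, from 16.9% (15.4 to 18.3) in Lys-CTT to 97.3% (96.4 to 98.0) in Leu-TAG.

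**Figure D4:**
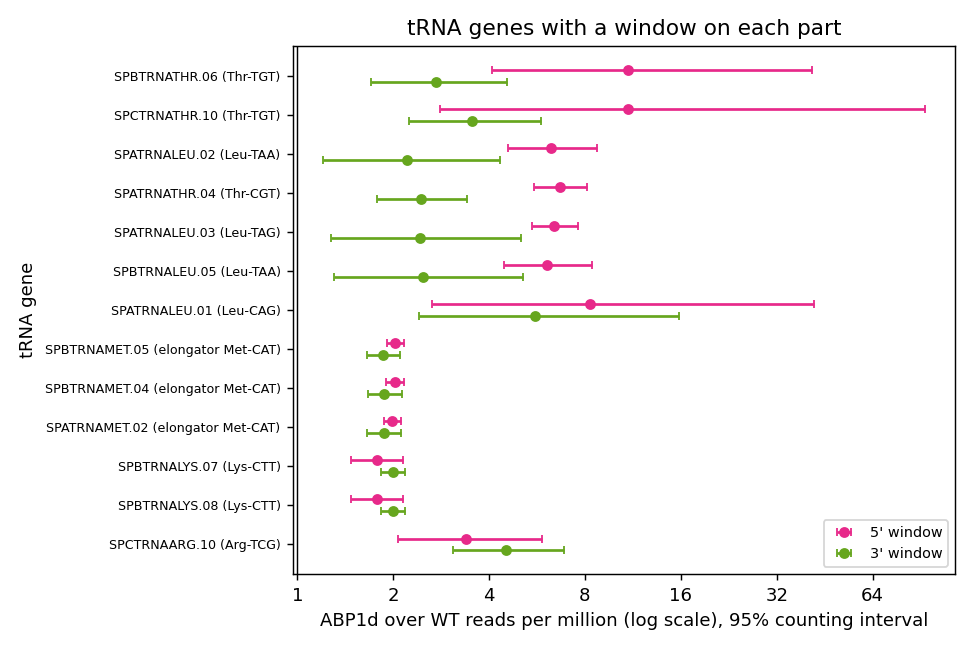
Ratio of ABP1d over WT RPM (log x axis, 95% counting intervals) of the 5′ window in pink and the 3′ window in green for the 13 tRNA genes with a window on each part. The 5′ point lies to the right in the leucine and threonine genes, for example 6.66 against 2.44 in SPATRNATHR.04, and both points are close to 2 in the elongator methionine genes.

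Window ends reached beyond the mature tRNA. Of the 174 windows, 74 began in the leader and 83 within 2 bases of the first base of the gene, while 95 ended past the last base. An end exactly 8 or 9 bases past the gene was found for 48 windows, 22 on the plus strand and 26 on the minus strand. The first run of 4 T bases, the usual end signal of RNA polymerase III, began 1 to 16 bases past these 48 genes, with a median of 4, which is also the median over all genes that have one within 60 bases. It began at 1 to 3 bases for 21 of the 48, so many of these windows end past the run. The most frequent 5′ edge was base 2 on the plus strand (43 windows) and 1 base before base 1 on the minus strand (33 windows), so edges are uncertain by about 1 base.

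Regions in the ABP1d list, which were drawn more narrowly than windows, held the abundant stretches. There were 45 on 48 tRNA genes and 0 in the WT list, but the lists reach down to different levels, 222 RPM in ABP1d and 544 in WT, and the highest WT window of a tRNA gene, at 468 RPM, was below the WT limit. At the limit of 544 RPM for both, 13 genes had an ABP1d region. Of the 45 regions, 36 held at least 99% of the reads of the window around them, and 31 of these were shorter than it. At SPATRNAGLY.02 the region ended at base 70 and the window at base 79, with 28076 ABP1d reads in each. A window end past the gene thus need not bring further ABP1d reads. The 3′ edge of 28 was within 2 bases of the last base of the nearest gene, and that of 2 was further out.

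Some list regions were much shorter than the gene. SPCTRNAGLN.06 had a region of 22 bases at its 5′ end with 8169 of the 8801 window reads, and SPCTRNAGLN.05 a region of 28 bases with 8344 of 8902. In SPBTRNALEU.06 (Leu-CAA) 56 bases from the 5′ end held 7777 of 8977 reads. In SPBTRNATYR.04 it was a 3′ region, of 46 bases from base 40, that held 24239 of 25272 reads, although the near-identical tyrosine genes have a region over the whole gene. The other 4 glutamine genes, SPBTRNAGLN.01 to SPBTRNAGLN.04, have regions of 76 to 102 bases over nearly the whole gene. The list gives no WT values for these stretches.

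Genes beside the centromeres were compared with all others. With no centromere feature in the annotation, a centromere was taken as the span of the annotated centromeric transcripts, at chrI:3753730-3790207, chrII:1602773-1643182 and chrIII:1071113-1138250, and genes within it or up to 10 kb away were called flanking. There were 7 on chromosome I, 27 on chromosome II and 21 on chromosome III, 55 in all, and 51 had a window of their own. Their median ratio was 3.53 (range 1.21 to 5.36), against 3.59 (1.21 to 14.7) for the 110 other genes with one. The medians differed by -0.02 on the log2 scale and by 0.05 for genes inside the span alone. With 1 copy per sequence in each place, here the copy with the fewest reads, they differed by -0.19.

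Levels were higher beside the centromeres: the median was 176 RPM in ABP1d and 51.6 in WT for flanking genes, and 73.4 and 18.4 for the others. Most of these values are not those of the loci themselves, because 44 of the 55 flanking genes have an identical copy elsewhere. On chromosome I the ratios of flanking genes ran from 2.70 at SPATRNAALA.04 to 5.36 at SPATRNAPHE.02, on chromosome II from 1.21 at SPBTRNAILE.06 to 5.32 at SPBTRNALEU.06, and on chromosome III from 1.91 at SPCTRNALYS.10 to 5.34 at SPCTRNALEU.12. None of the 14 genes with a ratio of at least 8 was flanking, where 51 of all 161 genes with a window of their own were. Several of the 14 are copies or near-copies of each other, and none of their sequences has a flanking copy.

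Identical copies in both places could be set side by side for 15 sequences. The median ratio of the flanking copies divided by that of the others ran from 0.758 to 1.07, with a median of 0.999, and was below 1 for 9 sequences and above 1 for 6. The lowest was that of a Leu-AAG sequence, whose single flanking copy had 839 ABP1d and 181 WT reads, a ratio of 2.82, against 3.72 for the median of its other copies. Phe-GAA had 5.29 beside the centromeres and 5.996 elsewhere. Reads shared between copies draw these values together, and locus-specific levels cannot be told from them.

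**Figure D5:**
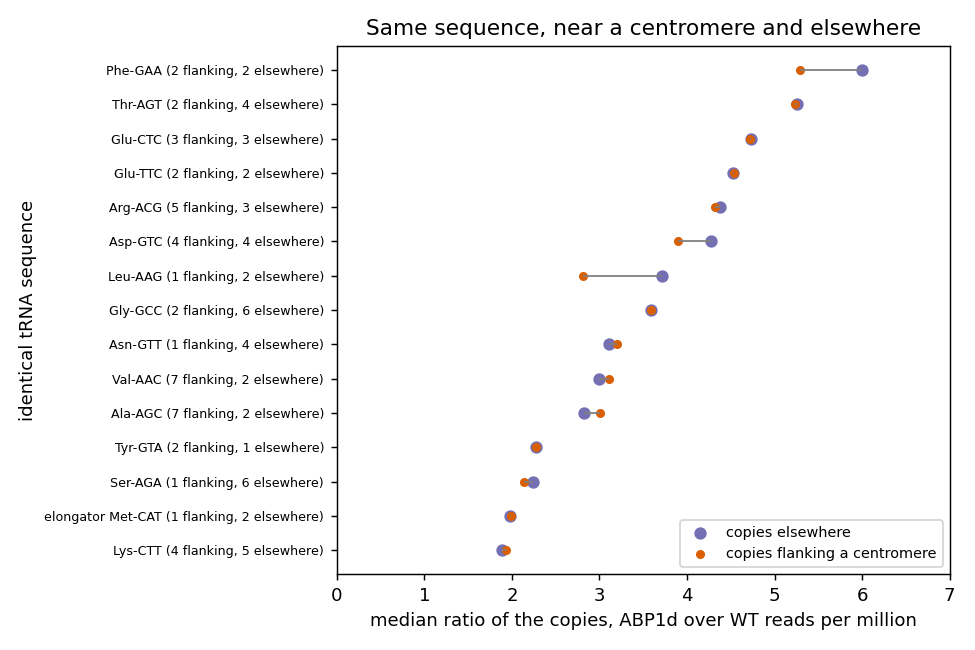
Median ratio of ABP1d over WT RPM (x axis) of copies flanking a centromere in orange and of identical copies elsewhere in purple, for 15 tRNA sequences found in both places. Most pairs coincide, and the widest distances are those of Leu-AAG (2.82 against 3.72) and Phe-GAA (5.29 against 5.996).

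The 5 genes without a window were SPATRNAARG.01, the single Arg-CCG gene, and 4 genes of Ile-AAT (SPATRNAILE.03, SPATRNAILE.04, SPBTRNAILE.05 and SPBTRNAILE.08). These 4 are identical to SPBTRNAILE.06 and SPBTRNAILE.07, which had 626 ABP1d and 314 WT reads at each, a ratio of 1.21 (1.06 to 1.39) that was among the lowest of all tRNA genes. A gene without a window is thus not shown to lack reads, since the table lists only windows past a limit of the authors.

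Genes with an intron had a median ratio of 2.28 (41 genes with a window of their own), and genes without one 3.90 (120 genes). With 1 copy per sequence the medians were 3.11 (15 sequences) and 4.12 (43 sequences). The highest ratio of all, at SPATRNAALA.06, belonged to a gene annotated with an intron.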

How the data were processed

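Small RNA was sequenced from 2 WT and 2 ABP1d libraries, which cannot be told apart in the files: each value pools a strain. Per the labels' protocols, libraries were made from 5 µg of RNA with 12 rounds of PCR, products of 125 to 250 nucleotides were kept and 38 cycles were sequenced. The submitters' processing notes list Bowtie 0.12.5; for the build, read filters, multi-matching reads, region calling and test nothing is given in the sources used here. The authors deposited RPKM values per region and strain, and a p-value per region.

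RPKM times length was divided by its smallest step to recover reads, and the inverse of the step gave the totals (Python 3.11.15, pandas 2.3.3, scipy 1.17.1). A count test had been foreseen for reads per library; with pooled values none was made. No WT value of a tRNA window was 0. Windows were placed on ASM294v3 with starts read as 0-based. A window with at least 10 bases in each of 2 tRNA genes was called shared and left out of gene values. Anticodons were read from the sequence; 2 genes took the exon limits of an identical copy. Copies were grouped by identical spliced sequence. Window and region edges within 2 bases of a gene end were called at the end.

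The members and lists were chosen with earlier results of these data known. The rule for names covered every amino acid, its gene with the most ABP1d reads, the 10 highest and 10 lowest ratios with at least 100 reads, genes without a window or with several, initiator methionine genes, the highest and lowest flanking gene per centromere, and the genes highest in the ABP1d list; identical copies and some genes it covers are given only within a range or an isoacceptor, and other genes named for their sequence, copies or list region were picked once values were known. The steps were tested on simulated data. Alternatives covered scaling, copies, overlap, read minimum, coordinates and the flanking distance.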

Additional observations from a re-analysis of the deposited data

How the results depend on the processing

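Directions depended on scaling. The median log2 ratio over tRNA genes was 1.57 on totals without rRNA, 0.59 with 5S rRNA windows centred, 0.61 with snoRNA reads equalised, -0.12 with snRNA windows centred and -0.25 with all windows centred, and the ratio summed over each distinct window once (3.77, 3.74 to 3.79, on the authors' totals) was 3.12, 1.58, 1.61, 0.969 and 0.886 in that order. With snRNA and all windows centred, 76 and 67 windows and 12 and 11 amino acid groups stayed above 1. The median over all windows also stayed above 1 with snRNA windows centred. Centring on all windows puts that median at 1 by construction. Groups that turned were, with 5S rRNA windows centred, isoleucine (0.757), lysine (0.964), proline (0.703), tyrosine (0.955) and elongator methionine (0.837), and with snoRNA reads equalised the same groups (0.768, 0.978, 0.713, 0.969 and 0.849). With snRNA windows centred, they were asparagine (0.756), glycine (0.963), isoleucine (0.464), lysine (0.590), proline (0.431), serine (0.690), tryptophan (0.710), tyrosine (0.585) and elongator methionine (0.512). With all windows centred, they were asparagine (0.691), glycine (0.880), histidine (0.970), isoleucine (0.424), lysine (0.540), proline (0.394), serine (0.630), tryptophan (0.649), tyrosine (0.535) and elongator methionine (0.468). The summed ratio was 3.63 with every copy, 3.81 for windows with a deposited p of at most 0.001, and 3.62 without SPATRNAALA.06; the median log2 ratio was 2.04 with 1 copy per sequence. At the common limit of both lists, 13 genes had an ABP1d region. The cause was not tested. Alanine had 5.29 and valine 3.14 with every copy counted, and serine 6.75 with a window counted for the gene that holds at least 50% of it. That serine value takes in windows that also cover initiator methionine genes. Another 43 summary values under alternatives, among them the flanking difference under each distance and the share of whole-gene windows, kept within a counting interval or within 1.5 times of their count. For medians and the flanking difference, that interval came from the genes nearest the medians. It does not measure the spread between genes.

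No paired analysis was possible because the files hold 1 pooled value per strain, so leaving out a replicate could not be done either. Intervals cover counting error only; reads amplified without molecular identifiers are not independent molecules, and 2 genes had under 100 reads in both strains together.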
